A study of Homo sapiens with 6 samples.

Results

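The 10 genes described here are the glucose transporters SLC2A1 and SLC2A3 and 8 enzymes of glycolysis, HK2, PFKP, ALDOA, GAPDH, PGK1, PGAM1, ENO1 and LDHA. They were chosen by name, through the gene symbols that the Ensembl identifiers of the table map to, and all 10 were found among 60617 rows. The choice was made with earlier results of these data known. All 10 also passed the filter on low counts, as did 17223 rows in all. The series profiled RNA of NCI-H1299, a human lung cancer cell line labelled as adenocarcinoma, to ask which function FuHsi, the gene knocked down, has in the nucleolus, the body in which ribosomes are made. The control group is 3 libraries labelled WT, with Puro in their titles, and the other group is 3 libraries labelled as FuHsi knockdown, with Sh1 in their titles. Neither word is explained further. Both groups are the same line in the same serum-supplemented RPMI1640 medium, the titles name 1 knockdown construct, and nothing says that the libraries of a group came from separate cultures. The p-values therefore measure the spread between these libraries, which may be technical.

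Glycolysis splits glucose into pyruvate in the cytosol. Glucose enters through facilitative transporters of the SLC2A (GLUT) family, and a hexokinase traps it as glucose 6-phosphate. Phosphofructokinase makes the committed step, aldolase cuts the sugar, and GAPDH, phosphoglycerate kinase, phosphoglycerate mutase, enolase and pyruvate kinase carry the lower part. Lactate dehydrogenase then turns pyruvate into lactate. Many tumour lines run this pathway at a high rate even with oxygen present. Several of its genes are textbook targets of MYC, which binds E-boxes, and of hypoxia-inducible factors (HIF), which bind hypoxia response elements.

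The start sites of 9 of the genes were in RefSeq (GRCh38.p14) with 16 promoter windows between them, each holding 250 bases before a start site and 50 from it on. SLC2A3 had no entry. The promoters of SLC2A1, LDHA, PGK1 and ENO1 are shown because they span the directions seen below: SLC2A1 rose in knockdown, and LDHA, PGK1 and ENO1 fell. Capitals mark ACGTG and GCGTG, the core letters of a hypoxia response element, on either strand, where the other strand reads CACGT or CACGC. The E-box CACGTG holds ACGTG on both strands. The windows lie at chr1:42958819-42959118 on the minus strand for SLC2A1, chr11:18394313-18394612 on the plus strand for LDHA, chrX:78103998-78104297 on the plus strand for PGK1 and chr1:8878637-8878936 on the minus strand for ENO1.
SLC2A1: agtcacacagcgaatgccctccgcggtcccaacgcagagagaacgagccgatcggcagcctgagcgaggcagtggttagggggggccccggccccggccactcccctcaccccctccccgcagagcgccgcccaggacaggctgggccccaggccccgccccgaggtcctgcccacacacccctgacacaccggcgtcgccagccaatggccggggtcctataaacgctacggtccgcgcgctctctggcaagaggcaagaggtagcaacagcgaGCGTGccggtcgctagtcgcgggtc
LDHA: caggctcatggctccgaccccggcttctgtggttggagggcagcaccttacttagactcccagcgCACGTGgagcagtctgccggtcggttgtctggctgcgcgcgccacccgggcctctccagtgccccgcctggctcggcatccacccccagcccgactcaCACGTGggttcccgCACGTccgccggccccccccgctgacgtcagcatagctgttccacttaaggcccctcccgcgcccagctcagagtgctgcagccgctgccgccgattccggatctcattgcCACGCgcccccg
PGK1: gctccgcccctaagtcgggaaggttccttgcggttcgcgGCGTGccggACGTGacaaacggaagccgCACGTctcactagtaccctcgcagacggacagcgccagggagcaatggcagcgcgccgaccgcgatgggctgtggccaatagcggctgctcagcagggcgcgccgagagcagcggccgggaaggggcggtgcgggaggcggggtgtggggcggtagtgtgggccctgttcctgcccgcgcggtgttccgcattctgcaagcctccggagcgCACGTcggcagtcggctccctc
ENO1: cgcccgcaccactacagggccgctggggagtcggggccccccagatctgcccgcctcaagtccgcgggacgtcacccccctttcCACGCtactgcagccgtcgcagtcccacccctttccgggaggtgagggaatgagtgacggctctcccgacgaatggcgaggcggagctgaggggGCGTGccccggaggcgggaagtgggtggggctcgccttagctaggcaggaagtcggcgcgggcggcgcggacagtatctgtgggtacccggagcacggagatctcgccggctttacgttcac

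The LDHA window holds CACGTG at 2 places, and these and 1 further match give 5 matches to ACGTG when both strands are counted. The PGK1 window holds 3 matches to ACGTG and no CACGTG. The windows of SLC2A1 and ENO1 hold no ACGTG, with 1 and 2 matches to GCGTG. Over both strands, 9 of the 16 windows held ACGTG, 8 held GCGTG and 4 held CACGTG. Among all 35116 RefSeq windows of the same length, 21.4% held ACGTG, 36.5% GCGTG and 7.26% CACGTG. Windows of 1 gene can overlap, as those of ALDOA do, and a match is a match of letters only.

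Both transporters were higher in knockdown and all 8 enzymes were lower, except that GAPDH was higher and HK2 was not called when library size was the only scaling. The changes ran from a 2.14-fold rise of SLC2A3 to a 1.85-fold fall of PGAM1. A gene was called when its adjusted p (Benjamini-Hochberg, over all tested genes) was under 0.05 in edgeR's quasi-likelihood test, with library scaling by TMM, a trimmed mean of log ratios between libraries. By that rule 2 of the 10 genes were higher, where 30.7% of all tested genes were, and 8 were lower, where 30.9% were. With either direction counted, 61.6% of tested genes were called, so a call by itself sets none of these genes apart. For all 10 genes the 3 knockdown libraries lay entirely above or below the 3 control libraries, as they did for 65.3% of tested genes. The median log2 fold change was -0.49 for the 10 genes and -0.62 for the 8 enzymes, beside 0.03 for all tested genes. Abundant genes were lower more often in these data. In the most abundant of 5 equal classes of genes, which holds 8 of the 10, 60.3% were lower and 26.7% higher, with a median of -0.20. In bulk RNA of this kind, fewer cells of a type and less RNA per cell cannot be told apart.

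The libraries held 24231515 to 34306849 counts, and each control library was deeper than each knockdown library. The share of called genes that were higher was 49.9% with TMM and 64.4% with library size as the only scaling, which moved the median of all tested genes from 0.03 to 0.18. Levels are given as CPM, a gene's counts scaled to the TMM-corrected library size. Correlations of log2 CPM were at least 0.990 within groups and at most 0.969 between them. FuHsi itself is not analysed here, since no symbol for it is given. The summed CPM of 8 lung adenocarcinoma markers was 2.71 to 3.18 in control and 6.76 to 7.28 in knockdown libraries, with SFTPC, SFTPA1 and SLC34A2 at 0 counts in every library. Of the 8, 3 were tested, 2 were higher and 0 lower. The 2 were NAPSA, at a log2 fold change of 3.22 and below 1 CPM in every library, and KRT7, at 1.72. KRT7 had means of 1.24 CPM in control and 4.10 CPM in knockdown. Defining genes of the labelled tumour type were thus at 0 or low. Of 7 epithelial markers 3 were tested and 1, KRT8, was lower, and their sum went from 824 to 834 in control to 614 to 661 in knockdown. That sum is nearly all KRT8 and KRT18, at means of 494 and 335 CPM in control and 320 each in knockdown. EPCAM, CDH1, KRT19, CLDN7 and ESRP1 were below 1 CPM in every library. Single markers are named after their values were seen. Of 6 mesenchymal markers 4 were higher and 1 lower, with sums of 1512 to 1554 and 1080 to 1127. The sum is mostly that of VIM, the gene called lower, at means of 1366 CPM in control and 839 CPM in knockdown. Blood, endothelial and fibroblast markers summed to 0.709 to 2.99 CPM in control and 1.46 to 3.79 in knockdown, over lists of 6, 5 and 6 genes with 1 gene of each called higher. The part of these markers in the results on glycolysis was not tested.

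**Figure D1:**
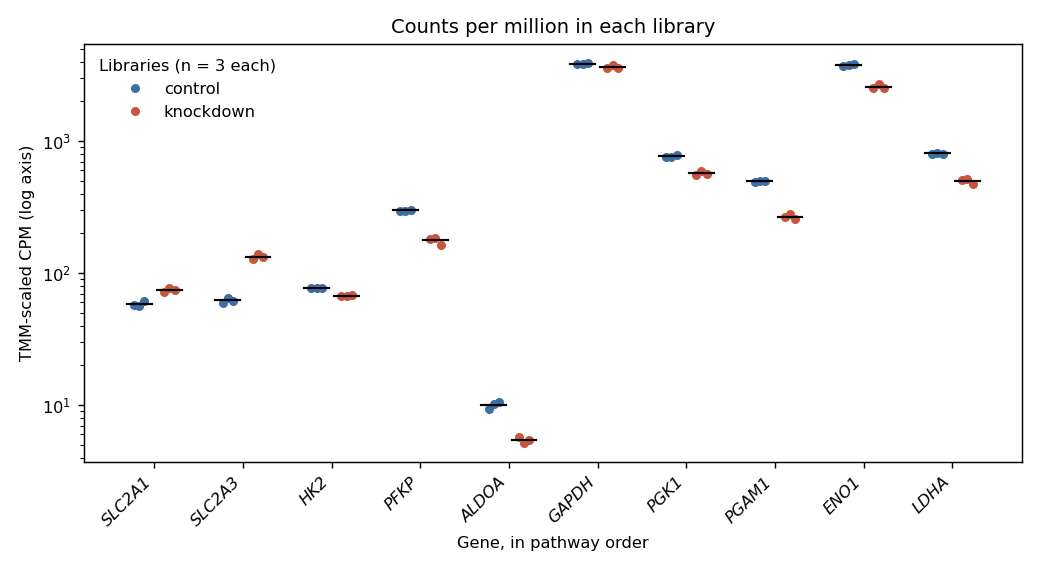
TMM-scaled CPM (log axis) of each gene in the 3 control (blue) and 3 knockdown (red) libraries, with bars at the group means. SLC2A1 and SLC2A3 sit higher in knockdown, the 8 enzymes sit lower (GAPDH not so with library size alone), and no gene's groups overlap.

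SLC2A3 (GLUT3, ENSG00000059804, GRCh38 chromosome 12, 7919230 to 7936275, minus strand) is a high-affinity glucose transporter best known from neurons. Its level was 59.6, 65.1 and 61.9 CPM in the control libraries and 128, 140 and 132 CPM in the knockdown libraries. Each knockdown library was thus far above each control library. The log2 fold change was 1.10 ± 0.05 (SE, n = 3 against 3; adjusted p = 1.41e-29 by edgeR's quasi-likelihood test), a 2.14-fold rise and the largest change in size among the 10 genes. None of its exonic bases is shared with another gene. Its close paralog SLC2A14 had 2 to 6 counts in control and 9 to 11 in knockdown libraries and did not pass the filter, and 3 SLC2A3 pseudogene rows together reached at most 0.426% of its counts.

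SLC2A1 (GLUT1, ENSG00000117394, chromosome 1, 42925375 to 42959176, minus strand) is the basal glucose transporter of most cells. It was at 57.5, 56.2 and 61.6 CPM in control and at 72.4, 77.3 and 74.1 CPM in knockdown. The groups were apart, but by less than for SLC2A3. Its log2 fold change was 0.35 ± 0.05 (SE; adjusted p = 1.61e-08, edgeR), a rise of 27.7%. Counts of SLC2A1 and SLC2A3 were near parity in control, with a log2 ratio of -0.09 ± 0.11 (SD, n = 3), and SLC2A3 led in knockdown, at -0.83 ± 0.02. The ratio moved by -0.74, with no overlap between groups, and an exact permutation test gave p = 0.1, two-sided, which is the smallest that 3 against 3 libraries allow.

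The profile most like that of SLC2A3 was that of DNAJB4, followed by NOTCH2 and ELOVL7. Likeness was the root mean square distance between log2 CPM values over the 6 libraries, each gene centred on its mean, among 12697 genes with a mean log2 CPM of at least 1. The distances were 0.034, 0.036 and 0.044 log2 units, and the genes' own log2 fold changes were 1.05, 1.13 and 1.05. With 2 groups of 3 libraries such a distance mostly reflects the size of the group difference.

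Other glucose transporters were mostly too low to test. Of 14 listed, 5 passed the filter, 2 were higher, 1 was lower and 2 were not called. Over all tested genes 30.7% were higher and 30.9% lower. SLC2A13, a proton-coupled inositol carrier of the same family, rose by 0.40 log2 units and SLC2A6, a lysosomal member, by 0.55. SLC2A8, an intracellular member, fell by 0.54. Per length and over these 3 genes plus SLC2A1 and SLC2A3, SLC2A3 made up 27.9% ± 1.28 (SD, n = 3) of the family's level in control and 41.3% ± 0.453 in knockdown. The share of SLC2A1 went from 34.2% ± 1.09 to 30.2% ± 0.0318 although its own level rose.

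HK2 (ENSG00000159399, chromosome 2, 74833981 to 74893359, plus strand) is the inducible hexokinase that binds mitochondria and is raised in many tumours. It was at 77.6, 77.4 and 77.6 CPM in control and 67.1, 67.6 and 68.3 CPM in knockdown. Values within each group were tight, and the small gap between groups was wider than both spreads. The log2 fold change was -0.20 ± 0.05 (SE; adjusted p = 0.000276, edgeR). With library size as the only scaling it was -0.04 and HK2 was not called (adjusted p = 0.430), so its fall rests on the scaling. HK1, the housekeeping hexokinase, fell further, by 0.40 log2 units. The log2 ratio of HK2 to HK1, which no scaling touches, went from -0.33 ± 0.01 to -0.12 ± 0.09 (SD, n = 3) without overlap (exact permutation p = 0.1, the smallest possible). HK2-DT, named after its values were seen and a divergent transcript from the other strand that shares 0.115% of the exonic bases of HK2, fell by 0.60.

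PFKP (platelet-type phosphofructokinase, ENSG00000067057, chromosome 10, 3066333 to 3137712, plus strand) was the main isozyme of the committed step here. It was at 297, 295 and 303 CPM in control and at 182, 185 and 163 CPM in knockdown, with knockdown replicate 3 lowest. Its log2 fold change was -0.76 ± 0.04 (SE; adjusted p = 5.84e-25, edgeR). The liver-type isozyme PFKL fell by 0.54, and the muscle-type isozyme PFKM rose by 0.35. Per length, PFKP made up 69.0% ± 0.60 of the 3 isozymes in control and 58.0% ± 1.23 in knockdown (SD, n = 3), PFKM went from 14.1% ± 0.362 to 25.5% ± 0.896, and PFKL was at 16.9% ± 0.241 and 16.5% ± 0.474. The log2 ratio of PFKP to PFKM moved by -1.11 and that of PFKP to PFKL by -0.22. Neither pair of groups overlapped, with an exact permutation p of 0.1 for each.

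A list of 7 genes held the PFKFB enzymes and TIGAR, which act on fructose 2,6-bisphosphate, the activator of phosphofructokinase, and the fructose 1,6-bisphosphatases FBP1 and FBP2, which run the opposite step. Of these, 6 were tested, 3 of which were not called and 3 were higher. Over all tested genes 30.7% were higher and 30.9% lower. PFKFB3, a kinase-dominant form linked to growth, rose by 0.33, and PFKFB4 rose by 0.63 log2 units. FBP2, named after its values were seen, was the other gene called higher, at 1.68 (adjusted p = 0.00341, edgeR) and below 1 CPM in every library. The 3 genes not called ran from -0.09 for TIGAR to 0.12 for PFKFB2.

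ALDOA (aldolase A, ENSG00000149925, chromosome 16, 30064164 to 30070457, plus strand) had far fewer counts than its neighbours in the pathway, with 9.39, 10.1 and 10.5 CPM in control and 5.75, 5.20 and 5.44 CPM in knockdown. The groups did not overlap, and the log2 fold change was -0.87 ± 0.13 (SE; adjusted p = 3.66e-08, edgeR). This value is uncertain. In GENCODE v29, 53.5% of the exonic bases of ALDOA are shared with other genes, chiefly the same-strand gene ENSG00000285043, which spans 30053090 to 30070420. How reads over both genes were counted is not given in the sources used here. That overlapping row was at 2.51, 2.80 and 1.80 CPM in control and 3.62, 2.37 and 4.62 CPM in knockdown, was called higher at 0.57 (adjusted p = 0.0210, edgeR), and its groups overlapped. Whether the low level of ALDOA is that of all aldolase A RNA in these cells was not tested. ALDOC, the brain-type aldolase, was below 1 CPM in every library and was called lower at -1.38, a call lost with DESeq2, without control replicate 1, and without either replicate 1 or 3 of the knockdown group.

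GAPDH (ENSG00000111640, chromosome 12, 6533927 to 6538374, plus strand), often used as a reference gene, changed least with TMM. With library size alone HK2 changed less, at -0.04. GAPDH was at 3861, 3825 and 3916 CPM in control and 3573, 3752 and 3590 CPM in knockdown. The groups were apart by a narrow margin. The log2 fold change was -0.09 ± 0.03 (SE; adjusted p = 0.00262, edgeR), a fall of 5.93%. Its direction depended on scaling, at -0.03 and not called with upper-quartile factors (adjusted p = 0.353) and at 0.07 and called higher with library size alone (adjusted p = 0.0125). A filter at a minimum count of 50 also ended the call, at -0.05 (adjusted p = 0.0617). In GENCODE v29 an antisense gene, ENSG00000269968, lies entirely within the exons of GAPDH, over 14.2% of its exonic bases, and had 0 counts in all 6 libraries. How shared reads were counted is not given, so the 0 counts do not settle whether GAPDH lost reads. The level of GAPDH and the ratios to it given below carry that doubt. The 65 GAPDH pseudogene rows summed to at most 0.206% of its counts.

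PGK1 (phosphoglycerate kinase, ENSG00000102144, chromosome X, 77910739 to 78129296, plus strand) makes ATP in the lower pathway. It was at 756, 763 and 788 CPM in control and 559, 592 and 561 CPM in knockdown, with a wide gap between the groups. Its log2 fold change was -0.43 ± 0.03 (SE; adjusted p = 4.49e-19, edgeR).

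PGAM1 (phosphoglycerate mutase, ENSG00000171314, chromosome 10, 97426160 to 97433441, plus strand) had the largest fall of the 10 genes. It was at 492, 498 and 498 CPM in control and 267, 280 and 257 CPM in knockdown. Its control libraries were nearly alike, and its knockdown libraries were more spread and far below them. The log2 fold change was -0.89 ± 0.03 (SE; adjusted p = 5.85e-32, edgeR), or 1.85-fold lower. Its 13 pseudogene rows together held 0.493% to 1.15% of its counts.

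ENO1 (enolase 1, ENSG00000074800, chromosome 1, 8861000 to 8879250, minus strand) was at 3735, 3774.5 and 3867 CPM in control and 2542, 2691 and 2524 CPM in knockdown. In control it stood level with GAPDH in counts, and in knockdown it was well below. The log2 fold change was -0.55 ± 0.03 (SE; adjusted p = 3.37e-26, edgeR). ENO2, the neuronal enolase, fell by 0.52, and the log2 ratio of ENO1 to ENO2 was 6.63 ± 0.10 in control and 6.60 ± 0.09 in knockdown (SD, n = 3). Those groups overlapped (exact permutation p = 0.8). ENO3, the muscle enolase, rose by 0.70 from a low level.

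LDHA (lactate dehydrogenase A, ENSG00000134333, chromosome 11, 18394388 to 18408425, plus strand), which favours the making of lactate, was at 804, 810 and 807 CPM in control and 510, 521 and 474 CPM in knockdown. The control libraries were nearly alike, and the lowest value was that of knockdown replicate 3. Its log2 fold change was -0.69 ± 0.03 (SE; adjusted p = 1.74e-27, edgeR), or 1.61-fold lower. LDHB, the heart-type subunit, was at 19.0 ± 0.711 and 13.7 ± 0.172 CPM (SD, n = 3) and fell by 0.47. LDHB shares 33.4% of its exonic bases with another gene on the same strand, ENSG00000285854, which had 0 counts in all 6 libraries. How reads over both genes were counted is not given, so the 0 counts do not settle whether LDHB lost reads. The level of LDHB and its ratio to LDHA carry that doubt. The log2 ratio of LDHA to LDHB moved by -0.22 without overlap (exact permutation p = 0.1).

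**Figure D2:**
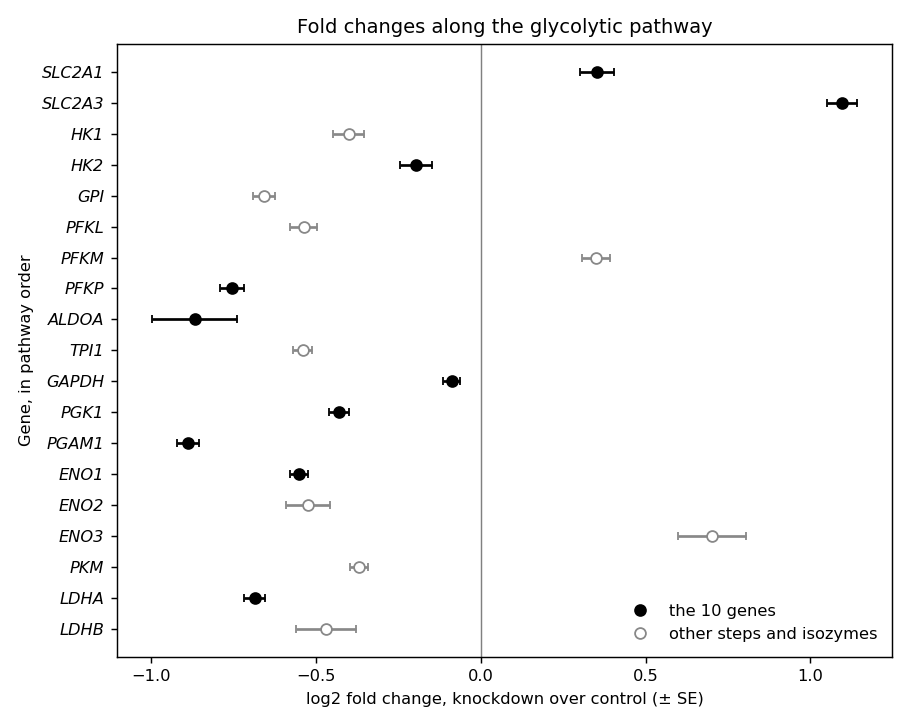
Log2 fold change of knockdown over control with its SE, in pathway order, for the 10 genes (filled) and for other steps and isozymes (open). The transporters, PFKM and ENO3 lie to the right of 0, and the other genes drawn lie to the left, from GAPDH at -0.09 (0.065 with library size alone) to PGAM1 at -0.89.

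The 7 ratios of isozymes or paralogs were tested as 1 family. Adjusted by the Benjamini-Hochberg method, the 5 pairs whose groups did not overlap had p = 0.14 by exact permutation, so none passes 0.05, and 3 against 3 libraries could not have passed. The ratio of ALDOA to ALDOC rested on few ALDOC counts and its groups overlapped, at 3.75 ± 0.38 and 4.36 ± 0.83 (SD, n = 3).

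**Figure D3:**
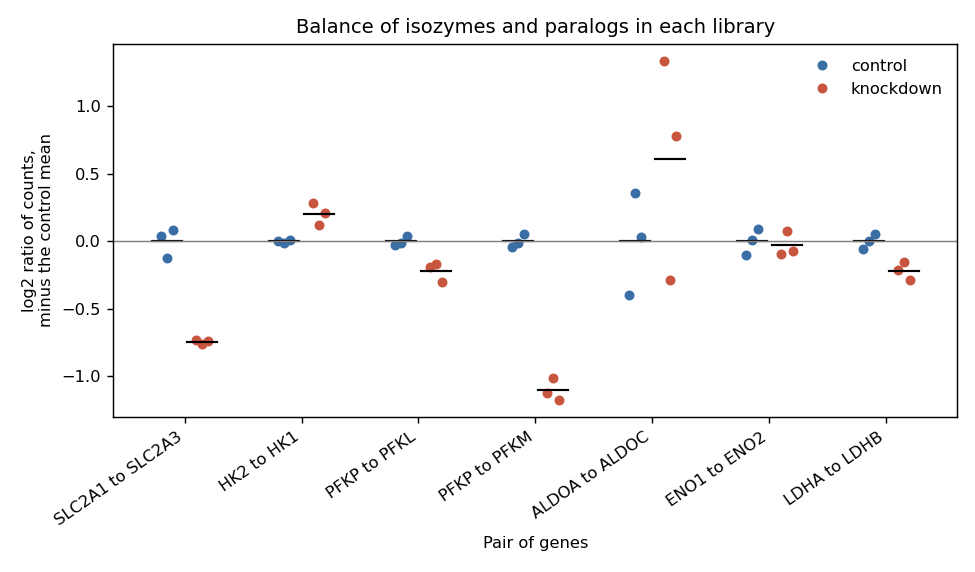
Log2 ratio of the counts of 2 genes in each library, minus the control mean of that pair, with bars at group means (control blue, knockdown red, n = 3 each). The ratio of PFKP to PFKM moved most, by -1.11, and that of SLC2A1 to SLC2A3 by -0.74, while ENO1 to ENO2 and ALDOA to ALDOC overlap between groups.

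Divided by exonic length and scaled to the same total in each library (TPM, a scale with no TMM factor), the order of levels in control was GAPDH at 4821 ± 30.5, ENO1 at 2671 ± 16.4, PGAM1 at 718 ± 6.32, PGK1 at 518 ± 5.002, LDHA at 483 ± 6.10, PFKP at 229 ± 1.25, HK2 at 47.5 ± 0.537, SLC2A1 at 46.0 ± 1.71, SLC2A3 at 37.5 ± 1.73 and ALDOA at 9.48 ± 0.437 (SD, n = 3). HK2 and SLC2A1 did not differ beyond their spread, with ranges of 46.9 to 48.0 and 44.5 to 47.8, and the other neighbours did not overlap. In knockdown PGAM1 at 434 ± 14.9 and PGK1 at 431 ± 8.93 no longer differed beyond their spread. SLC2A3 moved from the ninth place to the seventh, at 89.9 ± 2.95, above SLC2A1 at 65.7 ± 1.39 and HK2 at 46.4 ± 0.603. GAPDH was at 5079 ± 78.9 TPM in knockdown, above its control level, as with library size alone. The place of ALDOA carries the doubt on its counting. Exonic length here is that of all annotated exons of a gene merged, which can exceed the length of the RNA present. The order between genes, and the per-length shares given above, rest on these lengths. By mean CPM in control the order was LDHA at 807, PGK1 at 769 and PGAM1 at 496.

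The 10 genes took 0.967%, 0.965% and 0.977% of all counts in the control libraries and 0.838%, 0.870% and 0.826% in the knockdown libraries. Every knockdown share was below every control share (exact permutation p = 0.1, two-sided, the smallest possible). The 8 enzymes went from 0.958% ± 0.00592 to 0.823% ± 0.0219, and the 2 transporters from 0.0114% ± 0.000242 to 0.0219% ± 0.000756 (SD, n = 3). GAPDH and ENO1 alone made up 0.726% ± 0.00538 of all counts in control and 0.655% ± 0.0166 in knockdown. Relative to GAPDH within each library, a measure that no scaling touches, the log2 change was 1.19 for SLC2A3 and 0.44 for SLC2A1. It was -0.11 for HK2, -0.34 for PGK1, -0.46 for ENO1, -0.60 for LDHA, -0.67 for PFKP, -0.78 for ALDOA and -0.80 for PGAM1. None of these 9 ratios overlapped between groups. By CPM the groups of 65.3% of all tested genes did not overlap either. The share among ratios of other genes to GAPDH was not computed. A ratio shows unequal change and does not say which of its genes moved.

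**Figure D4:**
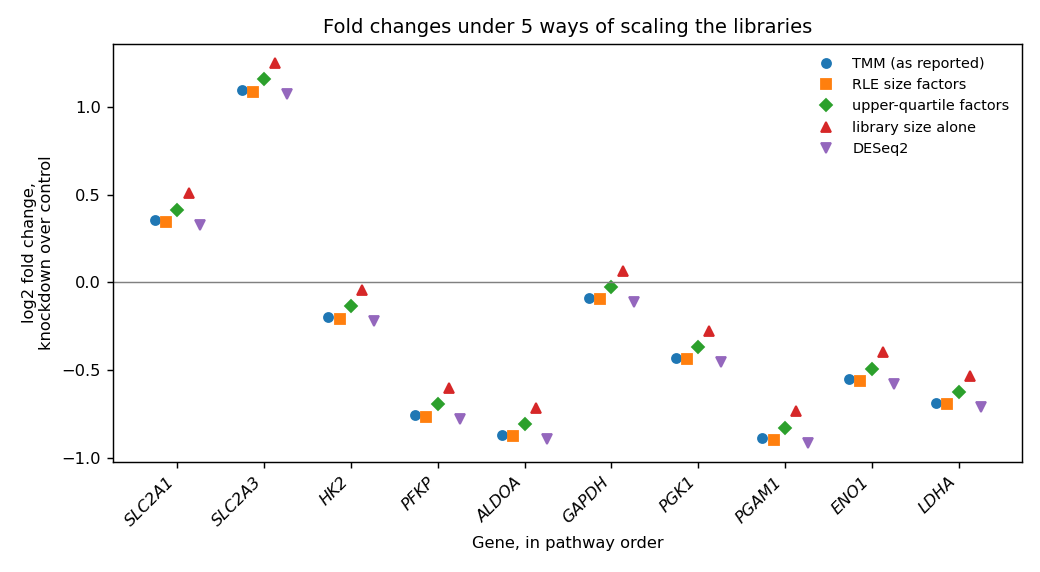
Log2 fold change of the 10 genes with TMM, relative log expression (RLE) and upper-quartile factors, library size alone and DESeq2 with its own size factors. GAPDH crosses 0 with library size alone (0.07) and HK2 comes near it (-0.04), and the other 8 genes keep their side.

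Most tested steps of the pathway outside the 10 genes were lower as well. Of 25 other glycolytic enzymes and isozymes 14 were tested, 9 were lower and 5 higher, with a median log2 fold change of -0.40. Among all tested genes 30.9% were lower and 30.7% higher, with a median of 0.03. The median of the list turned to 0.13 with no filter on low counts, where 23 were tested, 9 lower and 7 higher. It was also 0.13 with DESeq2, with 8 lower and 6 higher. DESeq2 was likewise run without that filter, on the same number of these genes, so it is not a separate check on the filter. GPI, which turns glucose 6-phosphate into fructose 6-phosphate, fell by 0.66. TPI1 (triose phosphate isomerase) fell by 0.54, and PKM, the pyruvate kinase of tumour cells, fell by 0.37 from 2495 ± 58.9 to 1932 ± 73.05 CPM (SD, n = 3). Among those that rose, ENO3 and PFKM are given above, and BPGM and HKDC1 had log2 fold changes of 0.34 and 1.53. HKDC1 was below 4 CPM in every library. BPGM and HKDC1 are named outside the rule for named genes, after their values were seen.

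The branches that share the sugar phosphates of glycolysis moved in both directions. Over all tested genes, 30.9% were lower and 30.7% higher, with a median log2 fold change of 0.03. Of 10 genes of the pentose phosphate pathway, which makes NADPH and ribose, 9 were tested, 7 were lower and 1 was higher, with a median of -0.44. RPIA (ribose 5-phosphate isomerase) fell by 1.03 and PGD (phosphogluconate dehydrogenase) by 0.80, while RBKS (ribokinase) rose by 0.69 from 1.87 ± 0.246 CPM, a call lost without knockdown replicate 3. Without control replicate 2, 2 genes of the list were higher. Of 18 genes of glycogen and hexosamine metabolism, all tested, 9 were lower and 5 higher, with a median of -0.26. The 5 became 7 with library size alone, 3 with DESeq2, and 3 without control replicate 2, control replicate 3 or knockdown replicate 1. PYGL (liver glycogen phosphorylase) fell by 1.004 and PGM1 (phosphoglucomutase) by 0.71, while OGT and OGA, which add and remove O-linked N-acetylglucosamine, rose by 0.82 and 0.29.

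Genes that handle pyruvate and lactate were split. Of 24 listed, 22 were tested, 8 were lower, 6 higher and 8 not called. Those counts are near the shares over all tested genes, 30.9% lower and 30.7% higher, and do not set the list apart. The list's median was -0.10. With library size alone it was 0.05, with 9 higher and 6 lower, and with upper-quartile factors 8 were higher and 8 lower. DLAT and PDHA1, both subunits of the pyruvate dehydrogenase complex, fell by 1.01 and 0.94, and PDHA1 shares 21.3% of its exonic bases with another gene. PCK2, which makes phosphoenolpyruvate in mitochondria, rose by 2.003, from 13.8 ± 0.689 to 55.6 ± 5.40 CPM (SD, n = 3). PC (pyruvate carboxylase) rose by 0.87.

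A list of the hypoxia-inducible factor system and its textbook targets was made without the 10 genes. The glycolytic targets that fell are thus not in it, and neither are the 2 transporters, which rose. PFKFB4, called higher, is in this list and in the list on fructose bisphosphates above. The list also holds brakes on the system, such as VHL and HIF1AN. Both were called higher, at 0.41 and 0.30, and are named here after their values were seen. Of 28 listed, 24 were tested, 13 were higher, 4 lower and 7 not called, with a median of 0.28. With library size alone 16 were higher and 1 lower. VEGFA, an angiogenic factor, rose by 0.97, and STC2 (stanniocalcin 2), also known as a stress-response gene, rose by 2.23, from 12.4 ± 1.71 to 58.2 ± 8.51 CPM. BNIP3, a mitophagy receptor, fell by 0.76 and EGLN2, an oxygen sensor, by 0.24. For EGLN2, 30.6% of exonic bases lie in another gene too, and the call was lost with upper-quartile factors or library size alone, without control replicate 3 and without knockdown replicate 3, when the log2 fold change was -0.18, -0.09, -0.16 and -0.19. HIF1A itself, at 152 ± 1.22 CPM in control and 151 ± 4.59 CPM in knockdown, was not called, at -0.02 (adjusted p = 0.737, edgeR). With library size alone it was called higher, at 0.14.

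Among 20 genes that sense glucose or act with MYC, 18 were tested, 9 were higher, 5 lower and 4 not called, with a median of 0.11, and 11 higher with library size alone. MYC had 264.5 ± 6.09 CPM in the control group and 288 ± 11.6 CPM in the knockdown group, a log2 fold change of 0.12. It was called higher (adjusted p = 0.00192, edgeR), and its groups did not overlap. MAX, the partner MYC needs to bind E-boxes, fell by 1.04, from 48.0 ± 1.32 to 23.3 ± 1.66 CPM, and MXD1, a repressor that competes for MAX, rose by 0.86. AKT1, a kinase that promotes glucose uptake, fell by 0.93, and PPARGC1A, a coactivator for mitochondrial genes, rose by 0.83. TXNIP, a glucose-responsive brake on glucose uptake, had 0 to 20 counts per library and did not pass the filter.

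**Figure D5:**
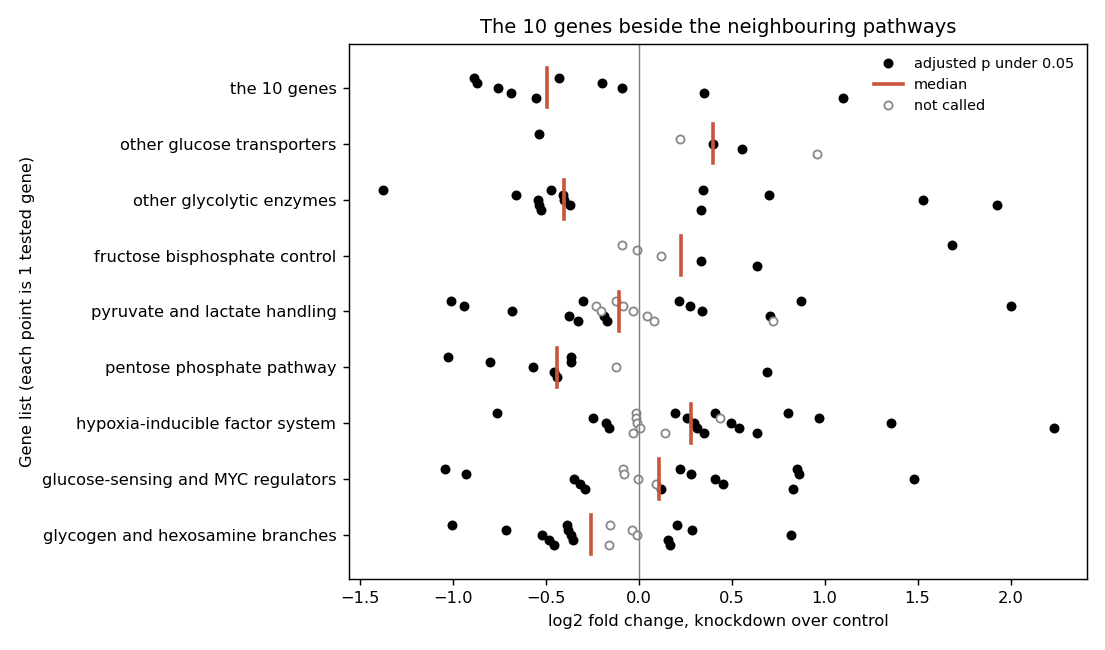
Log2 fold change of each tested gene of the 10 and of 8 lists of neighbouring pathways, filled where called, with red bars at list medians. The medians are -0.49 for the 10 genes, -0.40 for other glycolytic enzymes (0.13 with no filter on low counts), -0.44 for the pentose phosphate pathway and 0.28 for the hypoxia-inducible factor system.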

How the data were processed

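RNA of 3 control and 3 FuHsi-knockdown libraries of NCI-H1299 cells was sequenced from total RNA. The authors deposited 1 table of raw read counts per Ensembl gene. Trim Galore 0.6.6, STAR 2.7.0d, featureCounts 2.0.1, DESeq2 1.30.1 and hg38 are named in the submitters' processing notes. For the counter, the annotation, strand setting and treatment of reads shared by genes were not given in the sources used here. Overlapping genes are therefore uncertain.

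Genes were filtered with filterByExpr (minimum count of 10), scaled by TMM and tested with the robust quasi-likelihood test of edgeR 4.0.16 (R 4.3.3), the model holding group alone. P-values were adjusted over 17223 genes by the Benjamini-Hochberg method. SEs come from the test statistic, and log2 CPM used a prior count of 2. Totals of 24231515 to 34306849 counts and 3 libraries a group set the precision. Of 60617 identifiers, 60261 matched the gene name table. Positions and exonic lengths come from GENCODE v29 (GRCh38).

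The members and lists were chosen with earlier results of these data known. Named genes are the 10 members, the partners in the ratios and, from each list, at most the 2 called genes that rose most and the 2 that fell most, where mean log2 CPM reached 1. HIF1A, MYC, TXNIP, PKM, TPI1 and GPI were named whatever their values. The values of 1 listed gene are not reported here. In simulated counts for knockdown against control with 16363 genes tested, the test found 96 of 100 genes with a set change of 1 (log2) and 70 of 100 with one of 0.5, and it also called 7 of 16163 genes that had no change. Few genes were changed there, so the scaling was not tested at the number of calls seen here. Alternatives were RLE and upper-quartile factors, library size alone, no filter, a minimum count of 50, DESeq2 1.42.0, thinning, a replicate block and leaving out each library. DESeq2 was run on all genes with any counts, without the filter on low counts.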

Additional observations from a re-analysis of the deposited data

How the results depend on the processing

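Of the 10 genes, 8 kept their direction and their call under all 14 alternatives, with log2 fold changes of 1.05 to 1.25 for SLC2A3, 0.32 to 0.51 for SLC2A1, -0.47 to -0.28 for PGK1, -0.59 to -0.40 for ENO1, -0.72 to -0.53 for LDHA, -0.80 to -0.60 for PFKP, -0.92 to -0.71 for ALDOA and -0.93 to -0.73 for PGAM1. The 14 alternatives all used the same counts of ALDOA, so they do not address the doubt on its counting. HK2 lost its call with library size alone (-0.04), and GAPDH reversed there (0.065) and lost its call in 2 others. The 10 genes then gave 3 higher and 6 lower with library size alone, and 2 higher and 7 lower with upper-quartile factors or a minimum count of 50. HIF1A, not called with TMM, was at 0.044 with upper-quartile factors, 0.14 with library size alone and 0.018 with a minimum count of 50. For the scalings the difference from TMM is 1 factor per library. With the minimum count of 50 fewer genes were tested, and the TMM factors were computed again from those genes, so the scaling differed there too.

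Leaving out each library in turn left 2 of the 10 genes higher and 8 lower each time. The log2 ratio of ENO1 to ENO2 then ran from -0.082 to 0.015 and changed sign without control replicate 3 or knockdown replicate 1. The change in ALDOA to ALDOC ran from 0.25 to 1.06, with few ALDOC counts, and was 0.25 without knockdown replicate 1 and 1.06 without knockdown replicate 2. With the replicate number as a block, 5214 tested genes were higher and 5263 lower, with 2 and 8 of the 10 genes. The block changed no call among the 10. Same-numbered libraries deviated from their group means with correlations of -0.000751, -0.00642 and -0.0235, so the numbers give no sign of pairing. With pseudogene rows added, the genes' share of counts still fell by 0.125 percentage points.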
